A study of Mus musculus with 10 samples.

Results

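The genes described are the amino acid and sugar transporters of 8 solute carrier families, Slc1a, Slc2a, Slc3a, Slc5a, Slc6a, Slc7a, Slc38a and Slc43a, in BMEL cells, bipotential mouse embryonic liver cells, a line with the potential to become hepatocyte-like or bile duct-like. A gene was a member if the array platform's annotation gave its probe set a single symbol that starts with 1 of these 8 prefixes, and each gene was read from its brightest probe set. This gave 83 members, from 163 probe sets, of 18193 genes on the array. Both groups are BMEL cells kept under growth conditions and transfected with an LNA (locked nucleic acid) oligonucleotide by Oligofectamine: 5 arrays with an oligonucleotide antisense to miR-30a and 5 with a scrambled one. Both groups thus share the cell line, the transfection reagent and the LNA chemistry, and no untransfected cells were analysed here. The labels do not say whether arrays of a group came from separate cultures, so the p-values reflect the spread among these arrays alone, part or all of which may be technical. The comparison asks which of these genes differ in transcript level when miR-30a is targeted.

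Solute carriers are membrane proteins that move nutrients across the plasma membrane and between compartments. Slc2a members are facilitative sugar carriers (the GLUT proteins), while most Slc5a members use the sodium gradient to move sugars, vitamins or anions. Slc1a, Slc6a and Slc38a members couple amino acid uptake to sodium, and Slc7a light chains exchange amino acids, most of them as partners of a heavy chain encoded by Slc3a1 or Slc3a2. Some members with these prefixes carry neither amino acids nor sugars, such as Slc5a5 (iodide), Slc5a7 (choline) and Slc6a4 (serotonin), and Slc2a4rg-ps, Slc6a19os and Slc7a6os are not carriers of these families although their symbols start alike.

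The sequences of the targeted microRNA are shown because they define the treatment that separates the groups. They are from RefSeq (GRCm38.p6), with the seed (bases 2 to 8), which pairs with target transcripts, in capitals. The labels do not say which arm the antisense oligonucleotide was made against, so both are given, followed by the miR-30 members of the same table that share the seed of the 5p arm. These need not be all the microRNAs with this seed.
mmu-miR-30a-5p: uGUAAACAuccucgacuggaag
mmu-miR-30a-3p: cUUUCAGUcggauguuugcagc
mmu-miR-30c-5p: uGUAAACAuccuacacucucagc
mmu-miR-30e-5p: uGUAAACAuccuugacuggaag
The 5p arm of miR-30a lies at chr1:23272274-23272295 on the plus strand and the 3p arm at chr1:23272315-23272336. The level of miR-30a itself was not analysed here.

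All values are deposited log2 expression values, and array medians lay between 5.21 and 5.24. Of the liver epithelial markers, 9 of 10 were on the array and above the filter level, with Krt8, Krt18 and Krt19, simple epithelial keratins, at means of 13.77, 13.71 and 13.48. Albumin (Alb) was at a mean of 4.71, close to the filter level, and Pecam1 and Ptprc, defining markers of endothelial and blood cells, were below it at 3.47 and 3.56. Other markers of these lists were above it, 3 of 6 endothelial and 4 of 6 blood and macrophage markers on the array. Among them were Flt1 at 8.22 and Csf1r at 6.44. Of the mesenchymal and stellate markers 5 of 6 were above it, with Vim at 13.55. No epithelial, mesenchymal or endothelial marker passed the test between the groups, while 1 of 4 blood and macrophage markers did, the lysosomal gene Cd68 (change 0.39, limma adjusted p = 0.0176). The summed level of the blood and macrophage list was 7.70 to 7.90 in antisense and 7.64 to 7.82 in scrambled arrays; its part in the results was not tested.

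Of the 83 members, 48 had a mean of at least 4.559, a filter level that 40% of probe sets do not reach, and were tested among 12633 genes. By family, those above this level were 6 of 7 Slc1a, 8 of 12 Slc2a, 1 of 2 Slc3a, 7 of 13 Slc5a, 7 of 21 Slc6a, 9 of 16 Slc7a, 7 of 9 Slc38a and 3 of 3 Slc43a members. The tested members had means from 4.59 to 12.08, and 15 of them lay above 8. These levels come from different probe sets and do not rank the transcripts by abundance.

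None of the 48 tested members passed the threshold of 0.05 on the limma adjusted p, against 1.53% of all genes tested (1.16% higher and 0.372% lower). With the replicate number as a block 1 member did, Slc2a9, against 3.05% of all genes tested. The same member passed in a robust limma fit whose variance follows the level, against 2.4% of all genes tested. At an unadjusted p under 0.05 there were 8 members (16.7%), 5 higher and 3 lower with the antisense oligonucleotide, against 12.9% of all genes, so the share of members was close to the background. The median change of the tested members, antisense minus scrambled on the log2 scale, was 0.025 against 0.0084 over all genes tested, and the median size of the change was 0.054 against 0.047. Above 0 were 30 of 48 members (62.5%), against 55.1% of all genes tested. The arrays of the groups were fully separated, with no overlap, for 3 members (6.25%), against 3.92% of all genes tested.

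The intervals show how large a difference in the deposited values these arrays left possible. Whether these values follow the transcript level at dim probe sets, such as Slc1a1 (mean 4.62) and Slc43a1 (mean 4.81), was not tested. The 95% interval of the change, which is not adjusted for the number of genes, stayed within 1.5-fold in either direction for all 48 tested members at the probe set used. The standard error of a member's change ran from 0.036 to 0.107. The widest reach upward was to 0.509 (Slc5a6) and 0.504 (Slc2a9), and the widest downward to -0.359 (Slc7a11). In bulk RNA, fewer cells with a transcript and less transcript per cell cannot be told apart.

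**Figure D1:**
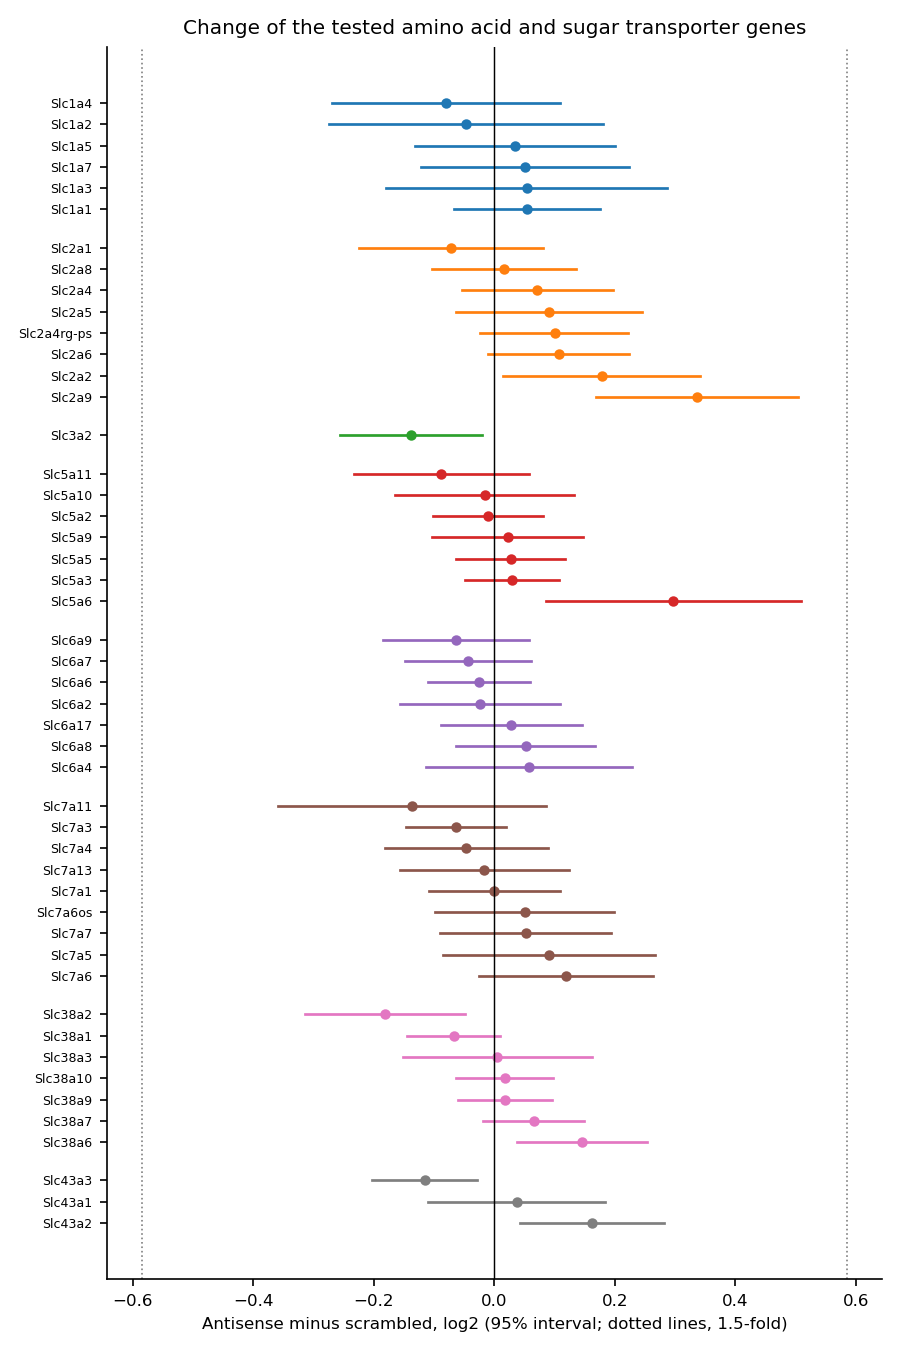
Change of the 48 tested transporter genes (x axis, antisense minus scrambled in log2 units; y axis, genes grouped and coloured by family), with points for the limma estimate from 5 arrays a group and bars for the 95% interval. Dotted lines mark 1.5-fold, which no interval reaches, and Slc2a9 and Slc5a6 lie farthest to the right at 0.34 and 0.30.

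Among the Slc2a sugar carriers the change of Slc2a9 had the smallest p of any member. Slc2a9 encodes GLUT9, a carrier known for moving urate. Its 5 scrambled arrays, replicates 1 to 5, were at 5.72, 5.30, 5.43, 5.43 and 5.40, and its antisense arrays at 5.73, 5.66, 5.96, 5.89 and 5.71. The antisense array was the higher one at each of the 5 replicate numbers, but by little at number 1, where the scrambled array was as high as the lower antisense arrays and the groups overlapped. The means were 5.45 ± 0.15 (SD, n = 5) and 5.79 ± 0.13 (SD, n = 5), so that the antisense level was 1.26-fold that of the control (0.34 on the log2 scale, SE 0.078, limma adjusted p = 0.0518). The adjusted p was 0.0439 with the replicate block, 0.0341 with the robust limma fit, and 0.0149 without scrambled replicate 1. With any 1 of the other arrays left out it ranged from 0.0522 to 0.142. A second Slc2a9 probe set above the filter level, with a mean of 5.09, had a change of -0.003 (SE 0.062), and averaging both probe sets gave a change of 0.17 (adjusted p = 0.114). The difference thus rests on 1 of 2 probe sets.

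Slc2a2, which encodes the hepatocyte glucose carrier GLUT2, was at 5.74, 5.94, 5.76, 6.02 and 5.74 in scrambled arrays and at 6.07, 6.22, 6.02, 5.95 and 5.83 in antisense arrays. The antisense array was higher at 4 of 5 numbers, and the groups overlapped between 5.83 and 6.02. Its change was 0.18 (SE 0.075, adjusted p = 0.329). The broadly expressed glucose carrier gene Slc2a1 (GLUT1) averaged 10.24 ± 0.12 in the scrambled arrays (SD, n = 5) and 10.16 ± 0.13 in the antisense arrays (SD, n = 5), with a change of -0.07 (95% interval -0.225 to 0.081, adjusted p = 0.752). Its other probe sets above the filter level were at -0.017 and -0.009. Slc2a8, an intracellular sugar carrier gene, had a change of 0.02 (adjusted p = 0.948). Of the 8 tested Slc2a members 7 were above 0, with a median of 0.095, where 55.1% of all genes tested were above 0. This count includes Slc2a4rg-ps (0.10), which is not a carrier. The fructose carrier gene Slc2a5 was at 0.09, the insulin-responsive carrier gene Slc2a4 at 0.07 and Slc2a6 at 0.11. The neuronal glucose carrier gene Slc2a3 lay below the filter level, at a mean of 3.35.

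Among the sodium-coupled Slc5a genes, Slc5a6, which encodes a carrier of biotin and pantothenate, had the largest change. Its scrambled arrays were at 5.50, 5.50, 5.64, 5.45 and 5.80 and its antisense arrays at 5.70, 6.25, 5.87, 5.79 and 5.76. Antisense replicate 2 was the highest array, scrambled replicate 5 was higher than 3 of the antisense arrays, and the groups overlapped. The change was 0.30 (SE 0.098, adjusted p = 0.19), or 0.20 without antisense replicate 2. The myo-inositol carrier gene Slc5a3 had a narrow spread, with 9.48 ± 0.035 in the scrambled arrays (SD, n = 5) and 9.51 ± 0.038 in the antisense arrays (SD, n = 5), and a change of 0.03 (95% interval -0.049 to 0.107). The kidney glucose carrier gene Slc5a2 was at -0.01 and Slc5a11, a second inositol carrier gene, at -0.09 (adjusted p = 0.657). The intestinal sodium-glucose carrier gene Slc5a1 was below the filter level at a mean of 3.85.

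The heavy chain gene Slc3a2 and its Slc7a light chain genes had changes on both sides of 0, none of them past the threshold. Slc3a2 encodes 4F2hc (CD98), which brings several light chains to the cell surface. It was at 11.83, 11.85, 11.85, 11.69 and 11.69 in scrambled arrays and at 11.60, 11.78, 11.68, 11.53 and 11.63 in antisense arrays. The antisense array was lower at each of the 5 numbers, while the groups overlapped between 11.69 and 11.78. The change was -0.14 (SE 0.054, adjusted p = 0.286, and 0.0986 with the replicate block). The other heavy chain gene, Slc3a1, whose product pairs with the cystine carrier of kidney and gut, was below the filter level at 4.20.

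Of the light chain genes, Slc7a5 (LAT1, a carrier of large neutral amino acids) averaged 9.78 ± 0.19 in the scrambled arrays (SD, n = 5) and 9.87 ± 0.088 in the antisense arrays (SD, n = 5), with a change of 0.09 (adjusted p = 0.722). Slc7a6, a carrier of cationic and neutral amino acids, had a change of 0.12 (SE 0.067, adjusted p = 0.507) and was higher in the antisense array at each of the 5 numbers, but a second probe set was at 0.022 and the change was 0.061 without antisense replicate 2. Slc7a7, which encodes the related carrier affected in lysinuric protein intolerance, was at 0.05 (adjusted p = 0.818). Slc7a11, the xCT subunit that imports cystine for glutathione synthesis, averaged 6.52 ± 0.26 in the scrambled arrays (SD, n = 5) and 6.39 ± 0.080 in the antisense arrays (SD, n = 5). Its change of -0.14 (SE 0.10, adjusted p = 0.647) was small beside the spread of the scrambled arrays, and a second probe set was at 0.010. It was -0.048 without scrambled replicate 1 and -0.23 without scrambled replicate 5. Slc7a8 (LAT2) lay below the filter level at a mean of 2.98.

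Of the Slc7a carriers of cationic amino acids, Slc7a1, Slc7a2 and Slc7a3 work without a heavy chain. Slc7a1, the broadly expressed arginine and lysine carrier gene, was at 10.45 in both groups, with a change of 0.0001 and a 95% interval from -0.109 to 0.109. A second probe set was at -0.006. Slc7a3, of the same kind, had a change of -0.06 (SE 0.039, adjusted p = 0.547). Slc7a2, an arginine carrier gene known from adult liver, was below the filter level at a mean of 3.92. The 9 tested Slc7a members, which include Slc7a6os (0.05), not a carrier, had 5 changes above and 4 below 0, from -0.14 to 0.12.

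The Slc38a genes encode sodium-coupled neutral amino acid carriers and included the 3 members whose groups did not overlap. Slc38a2 (SNAT2), a glutamine and alanine carrier gene induced when amino acids are scarce, was at 11.08, 10.82, 10.87, 10.85 and 10.83 in scrambled arrays. Its antisense arrays were at 10.75, 10.55, 10.71, 10.81 and 10.73. Each antisense array lay below each scrambled array, and scrambled replicate 1 stood above the rest. The change was -0.18 (SE 0.061, a 1.13-fold difference), which did not pass over all genes (adjusted p = 0.203, and 0.0962 with the replicate block). Its other probe sets above the filter level were at -0.171 (SE 0.052) and -0.083 (SE 0.071), so all of them lay below 0.

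Slc38a6, another member of the family, was at 7.86, 8.0, 7.84, 8.0 and 7.96 in scrambled and at 8.02, 8.03, 8.14, 8.18 and 8.01 in antisense arrays. The groups lay next to each other without overlap, and the change was 0.15 (SE 0.050, adjusted p = 0.215). Slc38a1 (SNAT1), a glutamine carrier gene, was at 10.25, 10.23, 10.24, 10.24 and 10.27 in scrambled arrays, a narrow range. Its antisense arrays were at 10.21, 10.18, 10.11, 10.23 and 10.14, with antisense replicate 4 and scrambled replicate 2 equal at this rounding and the groups apart only in the unrounded values, and a change of -0.07 (SE 0.036, adjusted p = 0.466) and -0.021 at a second probe set. The lysosomal arginine sensor gene Slc38a9 had a change of 0.02 (adjusted p = 0.908) and probe sets of either sign, from -0.125 to 0.080. The hepatic glutamine carrier gene Slc38a3 was at 0.005 (adjusted p = 0.991), and Slc38a4, which marks hepatocytes, was below the filter level at 3.03.

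**Figure D2:**
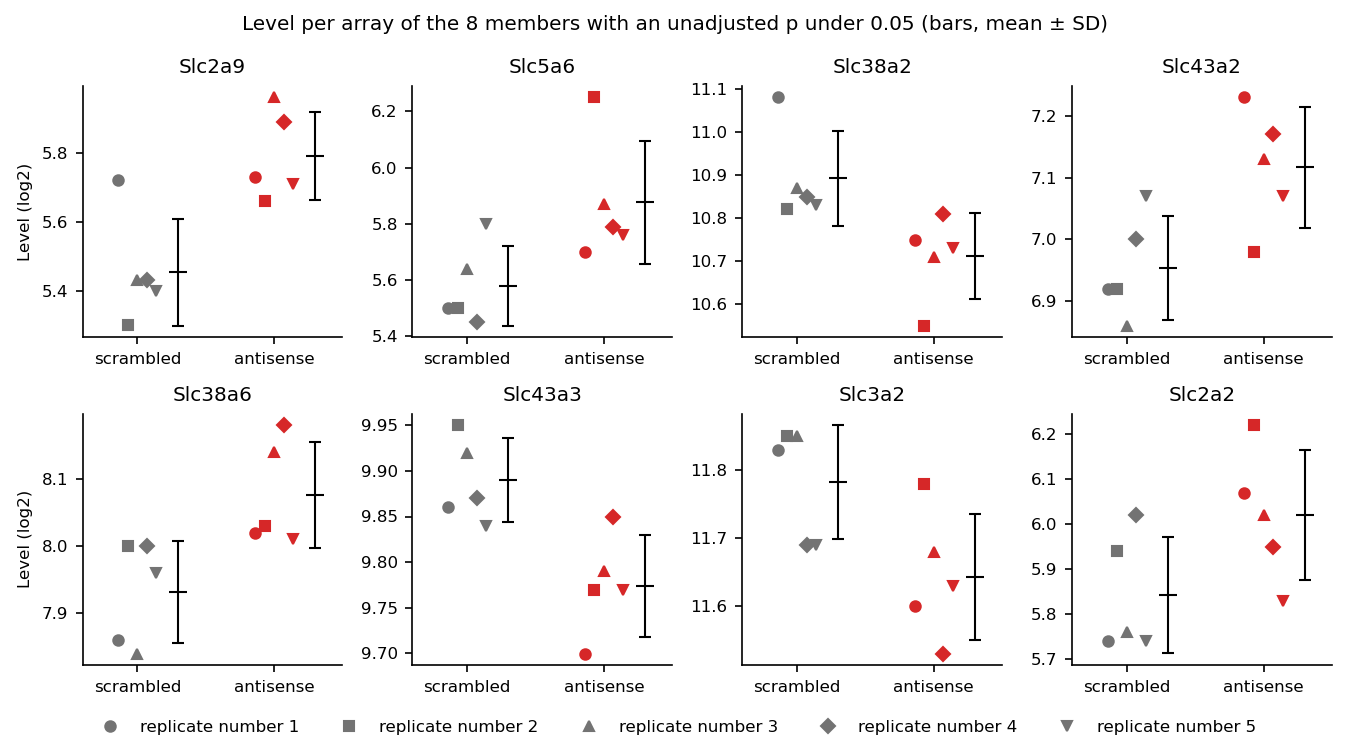
Level per array (y axis, log2; separate scales, not starting at 0) in scrambled (grey) and antisense (red) cells for the 8 members with an unadjusted p under 0.05; symbols give the replicate number and bars the mean ± SD of 5 arrays. Slc38a2 and Slc38a6 have groups that do not overlap, and scrambled replicate 1 of Slc2a9 sits at 5.72 beside the lower antisense arrays.

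The 3 Slc43a members were all above the filter level, and none passed the test. Slc43a2 (LAT4), a carrier of branched-chain amino acids and other large neutral ones, was at 6.92, 6.92, 6.86, 7.0 and 7.07 in scrambled and at 7.23, 6.98, 7.13, 7.17 and 7.07 in antisense arrays. The antisense array was higher at 4 of 5 numbers, with overlap between 6.98 and 7.07, and the change was 0.16 (SE 0.055, adjusted p = 0.211). A second probe set above the filter level was at 0.187 (SE 0.086). Slc43a3, whose product is known for carrying purine nucleobases and not amino acids, was at 9.86, 9.95, 9.92, 9.87 and 9.84 in scrambled and at 9.70, 9.77, 9.79, 9.85 and 9.77 in antisense arrays. It was lower in the antisense array at each of the 5 numbers, with overlap only between 9.84 and 9.85, and its change was -0.12 (SE 0.040, adjusted p = 0.224). Slc43a1 (LAT3) was at 0.04 (adjusted p = 0.891).

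At the probe sets used, the glutamate and neutral amino acid carriers of the Slc1a family had changes from -0.08 to 0.05. None of the 6 tested had an unadjusted p under 0.05. A second Slc1a2 probe set above the filter level, with a mean of 4.69, was at -0.236 (SE 0.115). Slc1a5 (ASCT2), a glutamine exchanger gene, averaged 7.50 ± 0.18 in the scrambled arrays (SD, n = 5) and 7.53 ± 0.080 in the antisense arrays (SD, n = 5), a change of 0.03, with a second probe set at -0.077. Slc1a4 (ASCT1), a carrier of serine and alanine, was at -0.08 (SE 0.088, adjusted p = 0.781), with its other probe sets at -0.135 and -0.041. With 1 array left out the change of Slc1a4 ranged from -0.1376 to -0.0118. Slc1a1, an epithelial glutamate carrier gene, had a change of 0.05 at a mean of 4.62, just above the filter level.

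The Slc6a family had the most members below the filter level, 14 of 21, among them Slc6a3 and Slc6a5, the dopamine and neuronal glycine carrier genes. The 7 tested ranged from -0.06 to 0.06. The taurine carrier gene Slc6a6 averaged 12.10 ± 0.054 in the scrambled arrays (SD, n = 5) and 12.07 ± 0.040 in the antisense arrays (SD, n = 5), and its change of -0.02 had a 95% interval from -0.110 to 0.060. The creatine carrier gene Slc6a8 was at 0.05 (adjusted p = 0.763) and the glycine carrier gene Slc6a9 at -0.06 (adjusted p = 0.712).

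The 35 members below the filter level had means from 2.72 to 4.55. In a fit of all 18193 genes without the filter none of them passed, and 2 had an unadjusted p under 0.05, Slc5a1 (change -0.17) and Slc7a2 (change -0.15), where 11.0% of all genes did. Both lay at dim levels, with means of 3.76 and 3.85 in antisense arrays and 3.94 and 3.99 in scrambled arrays. Their adjusted p was 0.432 each.

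Probe sets of the same gene gave a second reading of these small changes. Of the 23 tested members with several probe sets above the filter level, 13 had changes of 1 sign and 10 had changes of either sign. Slc38a2 and Slc43a2 kept their sign, while Slc2a9 and Slc7a11 had a second probe set near 0. For Slc38a10, a gene of the Slc38a family with 7 probe sets above the filter level, 6 were between 0.003 and 0.070 and 1 was at -0.247 (SE 0.088).

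**Figure D3:**
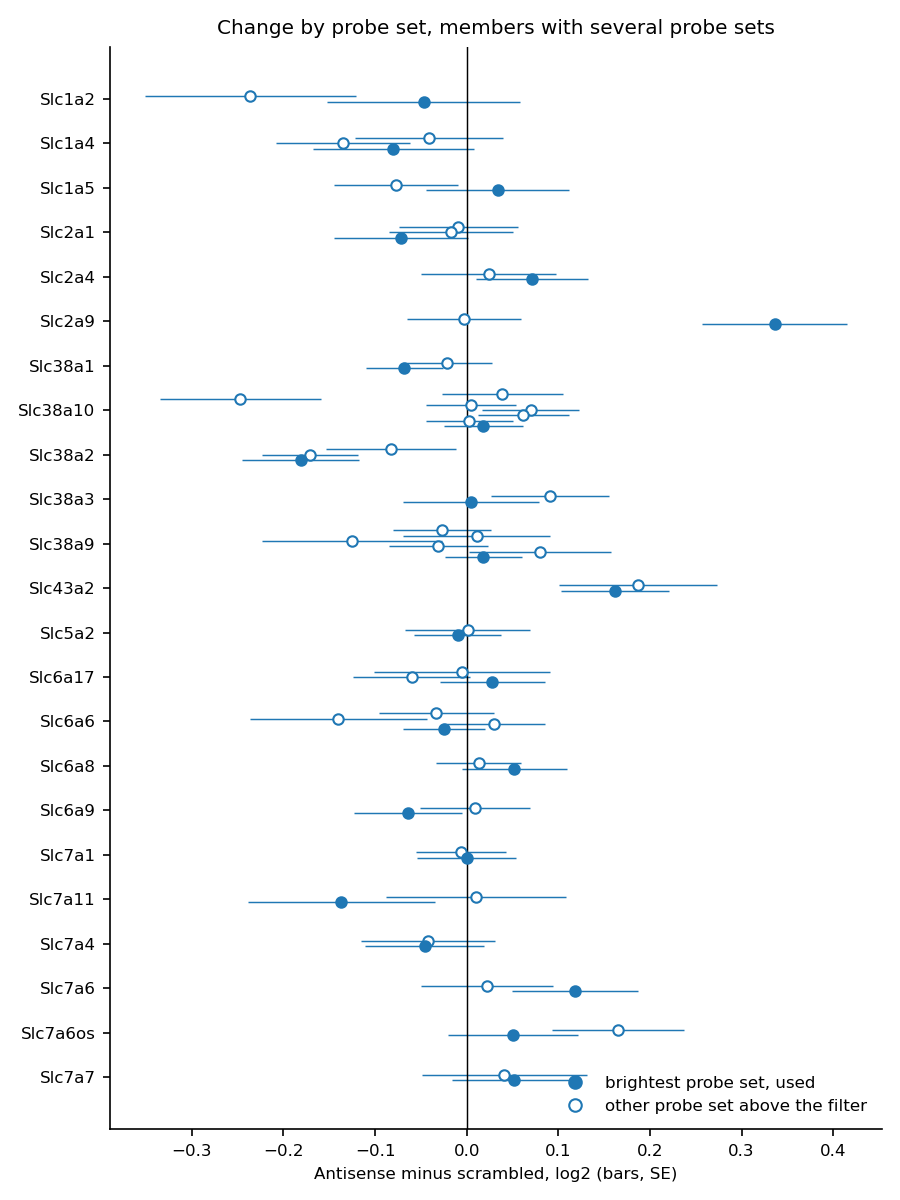
Change at each probe set above the filter level (x axis, antisense minus scrambled in log2 units; bars, SE) for the 23 tested members with several such probe sets (y axis); filled points are the brightest, which were used. The probe sets of Slc38a2 all lie below 0, and those of Slc2a9 are at 0.34 and -0.003.

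Related genes of nutrient transport and sensing were read from lists, and Slc3a2, a tested member, is also among the 12 tested trafficking and stability partners. Of 19 other amino acid and sugar carriers none passed (6 had an unadjusted p under 0.05, against 12.9% of all genes tested), with 11 above and 8 below 0 and a median of 0.011. Slc36a4, a carrier gene for proline and tryptophan, averaged 7.55 ± 0.11 in the scrambled arrays (SD, n = 5) and 7.31 ± 0.080 in the antisense arrays (SD, n = 5). Its change of -0.24 (SE 0.057, adjusted p = 0.0608) rests on 1 probe set. It passed after quantile normalization (adjusted p = 0.0341), with the robust limma fit (0.0378), with the 60% filter (0.0424) and without scrambled replicate 5 (0.0328). It did not pass with the replicate block (0.0538), the mean of probe sets (0.0533), median centring (0.0619) or no filter (0.09), and was at 0.154 without antisense replicate 4. Mfsd12, a lysosomal cysteine carrier gene, was at -0.17 (adjusted p = 0.275), and Slc36a1, a proton-coupled amino acid carrier gene, at 0.12 (adjusted p = 0.29). With the replicate block Slc16a10, an aromatic amino acid carrier gene named after its values were seen, fell by 0.20 (adjusted p = 0.0409 with the block, where 3.05% of all genes tested passed, and 0.321 without), with a second probe set at -0.27.

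Of 27 tested amino acid deprivation and nutrient sensing genes none passed, against 1.53% of all genes tested. An unadjusted p under 0.05 was found for 3, against 12.9% of all genes tested. There were 10 above and 17 below 0, where 55.1% of all genes tested were above 0, and the median was -0.031. Scrambled replicate 1 was the highest scrambled array for some genes below 0. Among them were Asns (11.28, others 10.82 to 11.06), Chac1 (9.97, others 9.17 to 9.50) and Trib3 (8.98, others 8.44 to 8.65). That array was also the highest for some genes above 0, such as Sesn2, Shmt2 and Psat1. Its part in these counts was not tested. Sesn2, a stress-induced leucine sensor gene, was at 0.18 (adjusted p = 0.106, and 0.0337 without scrambled replicate 1). Ddit3 (CHOP), a transcription factor of the integrated stress response, was at -0.16 (adjusted p = 0.12), and Eif2ak4 (GCN2), the kinase that senses uncharged tRNA, at -0.13 (adjusted p = 0.38).

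Of 13 tested sugar phosphorylation and glucose-responsive genes none passed, and 1 had an unadjusted p under 0.05, against 12.9% of all genes tested. With the replicate block 1 rose, against 3.05% of all genes tested. This was Arrdc4, an arrestin-domain gene that limits glucose uptake. Arrdc4 was at 5.68, 5.79, 5.89, 6.08 and 5.87 in scrambled and at 6.14, 6.05, 6.14, 6.22 and 6.15 in antisense arrays. Only scrambled replicate 4 reached into the antisense range. The change was 0.28 (SE 0.064, adjusted p = 0.0506, and 0.022 with the block), with 0.096 at a second probe set. It also passed with the 60% filter (adjusted p = 0.0353), with the robust limma fit (0.0406) and without scrambled replicate 4 (0.0137), and averaging its probe sets gave 0.19 (0.177). Gckr, the glucokinase regulator gene, was at -0.09 and Pfkfb3, a glycolysis activator gene, at 0.06 (adjusted p = 0.586 and 0.716).

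Of 12 tested trafficking and stability partners of the carriers 1 rose and none fell, against 1.16% of all genes tested that rose and 0.372% that fell, with a median of -0.007. An unadjusted p under 0.05 was found for 6 of the 12, against 12.9% of all genes tested. Cd44, a cell surface hyaluronan receptor known to stabilise the xCT carrier, was at 11.33, 11.33, 11.33, 11.30 and 11.36 in scrambled arrays and at 11.54, 11.49, 11.55, 11.61 and 11.48 in antisense arrays. The groups did not overlap, and Cd44 rose by 0.21 (SE 0.037, adjusted p = 0.0165, and 0.055 without antisense replicate 3), with 0.219 and 0.155 at its other probe sets above the filter level. The kinase gene Sgk1, which raises the surface level of several carriers, was at 0.18 (adjusted p = 0.19), and the ubiquitin ligase gene Nedd4l at -0.12 (adjusted p = 0.276).

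**Figure D4:**
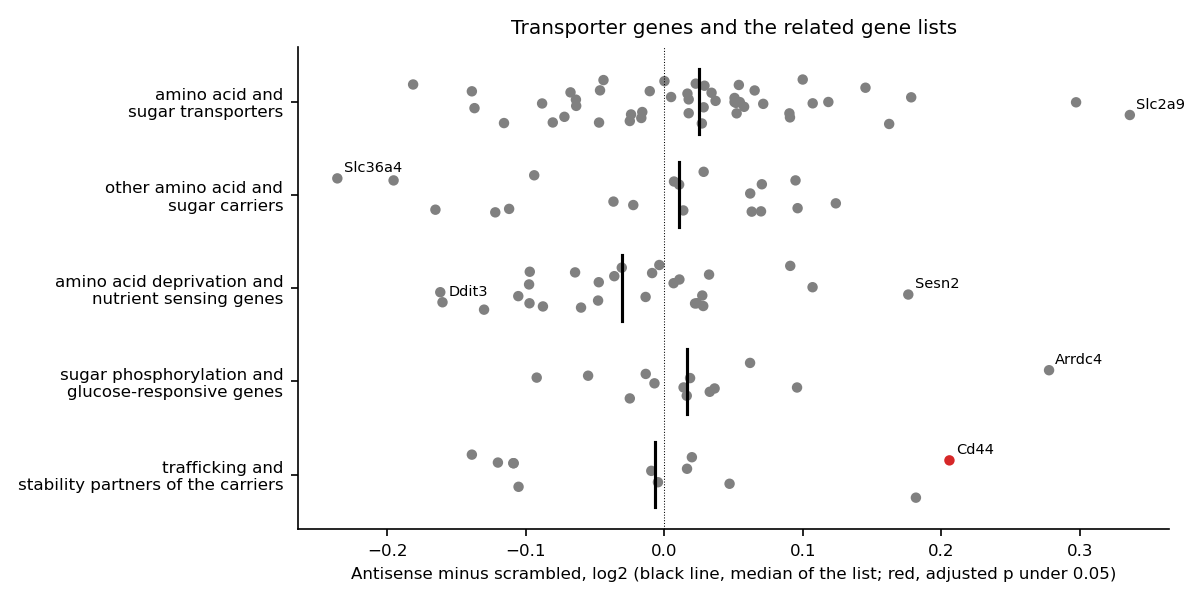
Change of each tested gene (x axis, antisense minus scrambled in log2 units) for the transporters and the 4 related lists (y axis; points are spread vertically for legibility), with black lines at list medians and names for genes with an unadjusted p under 0.005. Cd44 is the only red point, for an adjusted p under 0.05, and the medians lie between -0.031 and 0.025.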

How the data were processed

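The authors deposited log2 expression values for each probe set on each array. The scale was read from the values (highest 14.1827). How the authors summarised and normalized the probes is not stated in the labels or the file. Per the labels' protocols, 100 ng of total RNA was amplified and biotinylated. Of 45101 probe sets 64 are array controls, and the platform annotation gave 1 symbol for 34945, several for 932 and none for 9160. The brightest probe set of each gene by mean over 10 arrays was kept, and genes with a mean under 4.559 (the 40% level) were not tested.

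Antisense was set against scrambled by a two-sided moderated test (lmFit and eBayes of limma 3.58.1, R 4.3.3), adjusted by Benjamini-Hochberg over 12633 genes, with a threshold of 0.05, and checked on simulated data. No set test was run. Intervals use limma's moderated error. Fits per probe set used all probe sets with 1 symbol. The number of arrays limits the precision.

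Both groups carry replicate numbers 1 to 5. After subtracting group means, arrays sharing a number had correlations of 0.112 to 0.377 (mean 0.23). For different numbers they were -0.312 to 0.231 (mean -0.0594), so the ranges overlapped. Subtracting group means ties the mean for different numbers to that for shared numbers, so these means are not separate readings. The labels do not say that the numbers pair the samples, and the main fit used the group only. Its adjusted p-values, standard errors and intervals thus leave any such pairing out, and the fit with the replicate block takes it in.

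The members and lists were chosen with earlier results of these data known. Named were members past the threshold, the 2 smallest p in each family and a list of 30 members, and in each related list the 3 smallest p and any gene past the threshold. Changes are also given for Slc1a2, Slc2a4, Slc2a5, Slc2a6, Slc5a2, Slc38a10 and Slc16a10, which this rule did not name. It did not name Asns, Chac1, Trib3, Shmt2 or Psat1 either, which are given for scrambled replicate 1. Alternatives were a replicate block, quantile normalization, median centring, no filter or a 60% filter, the mean of probe sets, limma-trend with robust moderation, and leaving out each array. A promoter motif search was planned only if members changed and was not run.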

Additional observations from a re-analysis of the deposited data

Results flagged for a closer look

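In 5 of 80 groups of 5 arrays examined for the named genes, 1 array stood apart from the other 4 by more than 0.71 of the group's range, where chance gives about 1 in 20. Slc38a2 was at 11.08 in scrambled replicate 1, against 10.82 to 10.87 in the other scrambled arrays, and without that array its change was -0.13. Slc6a9 was at 9.04 in the same array, against 8.79 to 8.84. Slc38a9 was at 6.50 in antisense replicate 3, against 6.39 to 6.42. Slc7a1 was at 10.40 in antisense replicate 5, against 10.46 to 10.47. Slc36a1, the proton-coupled amino acid carrier gene, was at 6.90 in scrambled replicate 3, against 6.77 to 6.81.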

How the results depend on the processing

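The count of all genes past the threshold, 193, became 385 with the replicate block and 303 with the robust limma-trend fit, and ranged from 92 to 201 with 1 array left out (95, 92 and 123 without antisense replicates 3, 4 and 5, and 101 without scrambled replicate 3). The count of members past it, 0, became 1 (Slc2a9) with the block and with limma-trend and ranged from 0 to 1 with 1 array left out. The median change of the members stayed between 0.0092 and 0.0305 under these alternatives. With the mean of probe sets the sign turned for Slc1a5 (-0.0213), Slc38a9 (-0.0058) and Slc5a3 (-0.0377), with quantile normalization for Slc38a3 (-0.0017) and with median centring for Slc7a1 (-0.0028). The mean of probe sets takes in those below the filter level. For Slc5a3 the probe set used had a mean of 9.50, and the others were below that level at 3.43 and 4.31. With 1 array left out the changes ranged from -0.0039 to 0.1092 for Slc1a5, -0.0058 to 0.0624 for Slc2a8, -0.0339 to 0.0743 for Slc38a3, -0.0011 to 0.0264 for Slc38a9, -0.0042 to 0.0771 for Slc43a1 and -0.0378 to 0.037 for Slc7a1. The causes were not tested. Of the genes named by the rule, Slc2a9, Arrdc4, Cd44, Sesn2 and Slc36a4 crossed the threshold under some of these settings and the others under none. Slc16a10, named after its values were seen, crossed it with the block and not without the filter (limma adjusted p = 0.393). Its values under the other settings were not read out. With the 60% filter Slc2a9, whose brightest probe set had a mean of 5.62, was below the level of 5.988 and was not tested. The number of arrays limits how small a change can be called.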
